A study of Mus musculus with 12 samples.

Results

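The 10 secreted Wnt antagonists Dkk1, Dkk2, Dkk3, Dkk4, Sfrp1, Sfrp2, Sfrp4, Sfrp5, Frzb and Wif1 were followed across 4 groups of mouse cochlea. Members were the rows of the expression table whose gene symbol equals one of these names, and where a symbol had several rows the one with the highest mean was kept. All 10 were found among the 23598 rows of the table, and all 10 were among the 14581 rows that passed a filter on low values. The tissue was the apical and middle turns of cochleae taken on postnatal day 7, and each sample pooled 6 or more of them. There were 3 samples each of Control, of β-catenin OE (overexpression, labelled b-catenin-OE), of Notch1 KO (knockout) and of mice with both changes, here called the double group. The sources used here do not give the alleles, the driver of recombination, the cells it reached or any treatment. The design text of the series names division of supporting cells and the formation of hair cells, which sense sound, through the Wnt and Notch pathways.

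Wnt proteins signal by binding Frizzled receptors together with the co-receptors Lrp5 and Lrp6, which stabilises β-catenin and lets it activate target genes with TCF/LEF factors. Secreted antagonists act outside the cell and fall into families by how they do so. Dkk1, Dkk2 and Dkk4 bind Lrp5 and Lrp6, and Kremen proteins take part in that inhibition, whereas Dkk3 is a divergent family member whose receptor is less clear. Sfrp proteins, Frzb (also known as Sfrp3) included, carry a cysteine-rich domain like that of Frizzled and bind Wnt proteins directly, as does Wif1 through a domain of its own. Dkk1 is known as a target of β-catenin and TCF in human cells, so that a Wnt antagonist can itself lie downstream of the pathway.

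Promoter sequence is shown for 3 of the antagonists that were higher in the double group, because they differ in their matches to the TCF/LEF-type motifs. The motifs searched were CTTTGAA, then CTTTGAT, further CTTTGTA and finally CTTTGTT. Each line gives the 250 bases before the start of the gene, 5′ to 3′ on the strand of the gene, from RefSeq (GRCm38.p6), in lower case with motif matches in capitals. They are chr19:30549497-30549746 on the minus strand for Dkk1, chr3:132085042-132085291 on the plus strand for Dkk2 and chr10:121033754-121034003 on the plus strand for Wif1. The RefSeq starts of Dkk2 and of Frzb, whose sequence is not shown, lie downstream of the starts in the expression table. In GENCODE, Dkk1 starts further upstream, at 30549665, so both of its matches lie inside the gene there.
Dkk1: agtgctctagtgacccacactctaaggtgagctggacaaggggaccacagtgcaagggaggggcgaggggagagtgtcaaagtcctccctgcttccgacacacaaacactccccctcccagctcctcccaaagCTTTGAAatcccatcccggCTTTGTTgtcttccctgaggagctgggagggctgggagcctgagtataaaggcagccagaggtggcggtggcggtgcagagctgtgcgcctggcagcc
Dkk2: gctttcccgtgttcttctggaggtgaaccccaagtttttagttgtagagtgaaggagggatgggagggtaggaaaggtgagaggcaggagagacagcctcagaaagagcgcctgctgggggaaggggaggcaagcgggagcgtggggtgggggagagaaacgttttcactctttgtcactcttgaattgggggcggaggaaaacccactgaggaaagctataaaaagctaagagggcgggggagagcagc
Wif1: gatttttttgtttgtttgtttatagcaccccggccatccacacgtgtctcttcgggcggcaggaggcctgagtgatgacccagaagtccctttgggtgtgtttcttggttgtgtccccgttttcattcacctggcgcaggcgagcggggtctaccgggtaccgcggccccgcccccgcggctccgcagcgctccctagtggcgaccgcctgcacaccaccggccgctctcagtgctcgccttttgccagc
The motifs were searched on both strands. Dkk1 held 2 matches, CTTTGAA beginning 117 bases and CTTTGTT beginning 98 bases before the start of the gene. Of the 32851 mouse promoters searched in the same window, 14.8% held at least 1 match and 1.43% held at least 2. Promoters were at hand for 6 of the 10 members, and those of Dkk2, Sfrp2, Sfrp5, Frzb and Wif1 held 0 matches. A match is a run of letters and not a shown site of binding. In these data Dkk1, Dkk2 and Wif1 all rose in the double group, and Dkk1 is the one of the 3 with matches.

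The deposited values are FPKM, which divide the fragments of a gene by its transcript length and by the size of the library, so levels can be set side by side between genes. Within each group sample 1 stood apart. Over 5889 rows of at least 10 FPKM, log2 values of samples 2 and 3 differed with a robust SD of 0.0744 to 0.131, and sample 1 differed from them with 0.287 to 0.438. Nothing in the labels says that samples of a group were separate pools of mice, and p-values therefore measure only how these samples spread, part of which may be technical. For 8 samples, those numbered 2 and 3, low values fell on whole-fragment steps that correspond to a depth of 18.5 to 27.0 (in units of 1000000 fragments), if FPKM was not scaled further. No such steps were seen in the 4 samples numbered 1, whose depth is unknown. Notch1 was at 24.3, 14.7 and 16.6 FPKM for Control, 37.6, 15.7 and 16.7 for β-catenin OE, 9.16, 7.63 and 7.56 for Notch1 KO, and 8.62, 5.70 and 5.77 for the double group. Its fall against Control passed the test in the double group (log2 difference of -1.39 ± 0.30, adjusted p = 0.0113 by limma) and did not in Notch1 KO (-1.11, adjusted p = 0.16 by limma). Ctnnb1, the β-catenin gene, averaged 392 ± 37.5 FPKM (SD, n = 3) for Control and 398 ± 22.5 for β-catenin OE, and its total level passed in none of the comparisons. The non-coding RNA Xist, looked at after its values were seen, was at 0.0239 and 0.0146 FPKM in double samples 2 and 3, 19.5 in double sample 1 and 20.8 to 134 in the other groups. The part of that difference in the results was not tested.

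The antagonists moved in opposite directions in the double group. Against Control, Dkk1, Dkk2, Dkk4 and Wif1 rose and Sfrp1, Sfrp2 and Sfrp4 fell, which made 7 of 10 members past the threshold (limma on log2(FPKM + 0.5), Benjamini-Hochberg adjusted p under 0.05 over all tested rows), beside 12.5% of all tested rows. Dkk1 and Dkk4 passed the filter on low values only through β-catenin OE and double samples, where they were high. No Control or Notch1 KO sample of either gene reached the 0.5 FPKM of the filter. Counts that hold them, here and below, are thus partly set by the filter. In β-catenin OE against Control, Dkk4 was the 1 of 10 that passed, and it rose, beside 2.24% of all rows. In Notch1 KO against Control, 0 of 10 passed limma's test, beside 0.857% of all rows, and Sfrp1 and Wif1 had an unadjusted p under 0.05. The median log2 difference of the 10 was 0.34 for β-catenin OE, -0.02 for Notch1 KO and -0.16 for the double group, beside -0.01, -0.01 and -0.02 over all tested rows. These 3 comparisons share the Control samples, so their values are not independent.

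The double group was also set against each of the others. Against β-catenin OE, Dkk2 and Wif1 rose and Sfrp1 and Frzb fell, 4 of 10 members beside 2.72% of all rows. Against Notch1 KO, Dkk1, Dkk2, Dkk4 and Wif1 rose and Sfrp2 fell, 5 of 10 beside 10.1% of all rows. Between β-catenin OE and Notch1 KO, Dkk4 and Wif1 were higher in β-catenin OE, 2 of 10 beside 5.03% of all rows. Sfrp5 and Dkk3 passed in none of these 6 comparisons. When samples 2 and 3 of each group were averaged into 1 value, the members past the threshold numbered 0 in β-catenin OE against Control, 1 (Dkk4) in double against Control, 1 (Wif1) in double against Notch1 KO and 0 in the other 2 comparisons of groups that had calls.

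**Figure D1:**
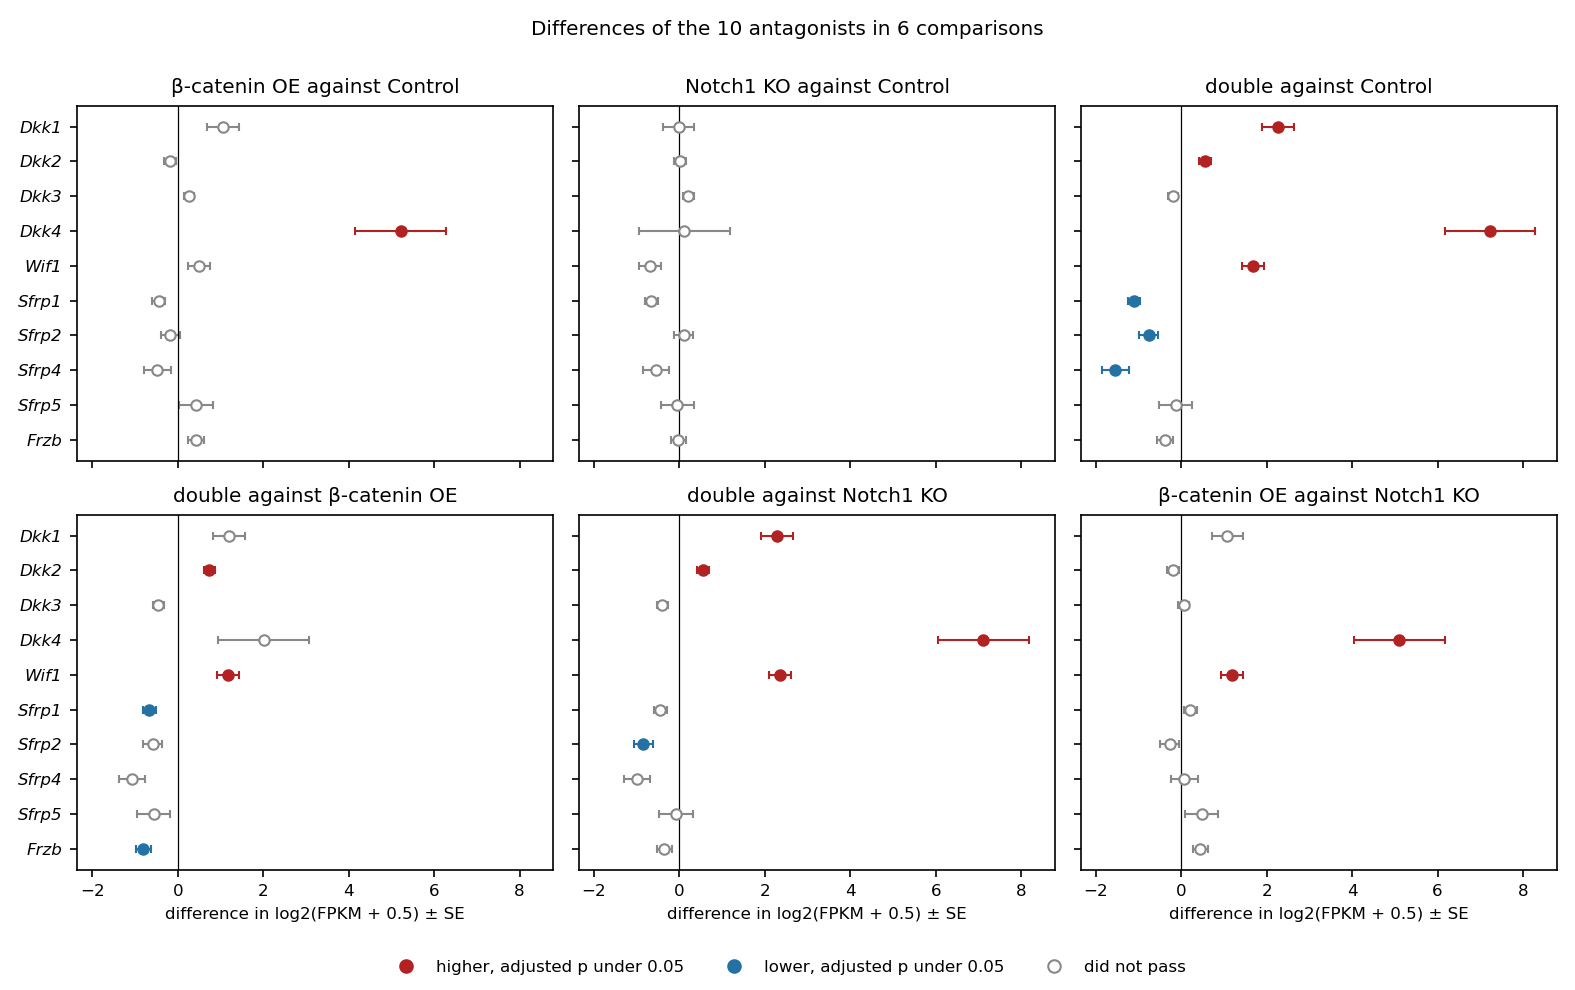
Difference in log2(FPKM + 0.5) of each antagonist in 6 comparisons, with bars for the standard error from limma (n = 3 per group); filled points had an adjusted p under 0.05 (red higher, blue lower) and open points did not. In the double group against Control, 4 antagonists lie to the right of 0 and 3 to the left among the filled points, while in Notch1 KO against Control all 10 points are open.

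In Control cochlea the antagonists ranged from 0 to 173 FPKM. Sfrp1 was highest (158 on average), followed by Frzb (94.6), and the samples of these 2 genes did not overlap. Dkk3 (63.0) and Wif1 (61.7) came next and overlapped each other. Dkk2 (36.6) and Sfrp2 (33.9) overlapped too, as did Sfrp4 (5.71) and Sfrp5 (2.07), and Dkk1 and Dkk4 lay at or under 0.143 FPKM in every Control sample. The order was different in the double group, where Wif1 (195 on average) stood above all others with no overlap. Dkk4 (78.7), Sfrp1 (73.1) and Frzb (72.7) followed, each overlapping the next, then Dkk3 (54.6) and Dkk2 (53.6), whose samples also overlapped. In β-catenin OE, Frzb (128) and Sfrp1 (116) overlapped at the top, and in Notch1 KO Sfrp1 (99.5) and Frzb (95.8) did.

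**Figure D2:**
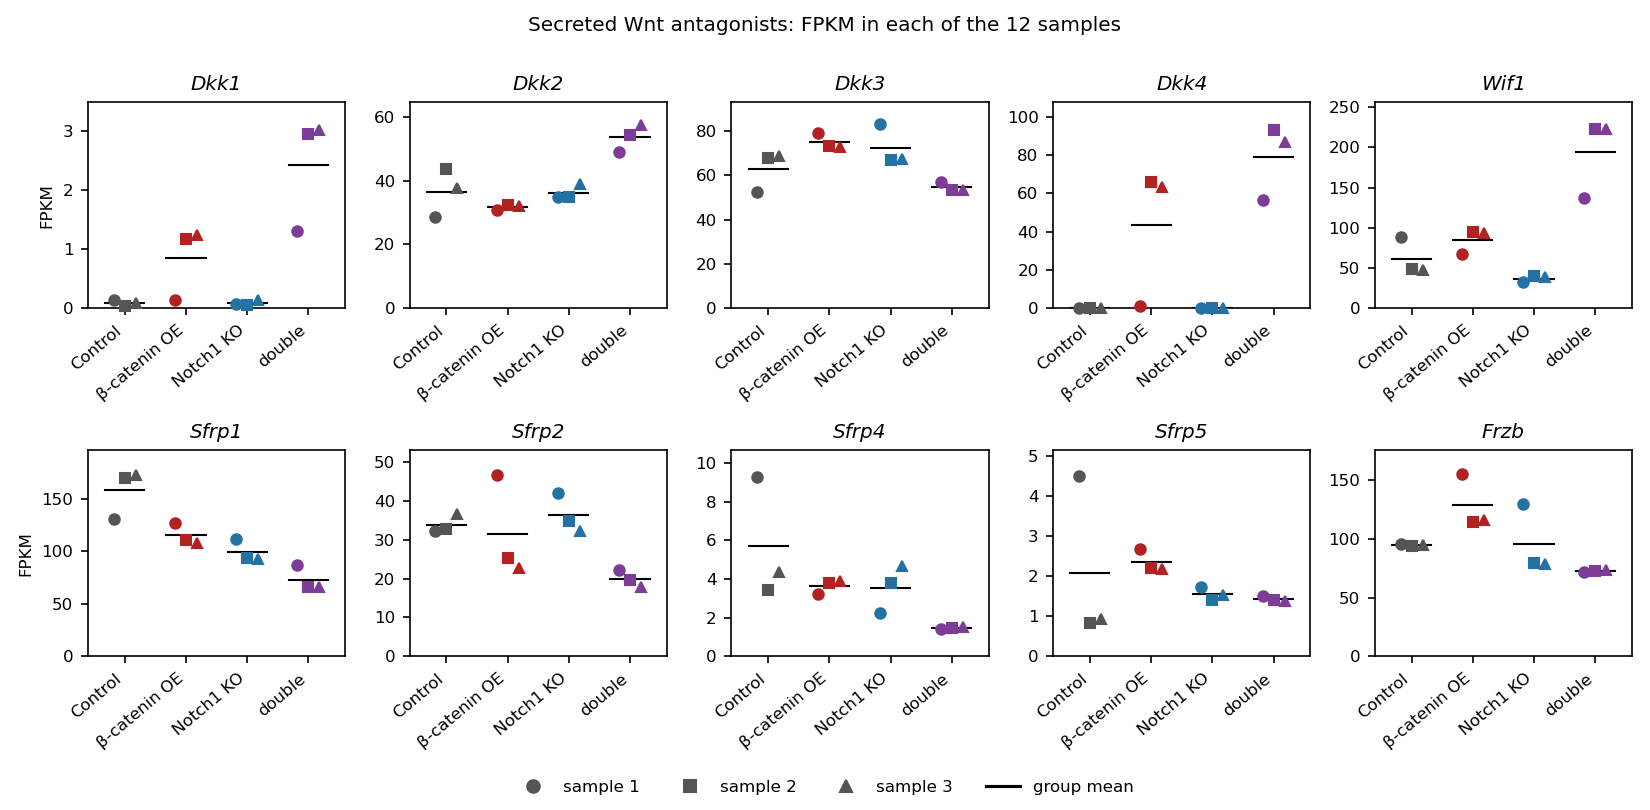
FPKM of the 10 antagonists in each of the 12 samples, 1 panel per gene on its own linear axis from 0, with circles, squares and triangles for samples 1, 2 and 3 and a bar at the group mean. Dkk1, Dkk4 and Wif1 are highest in the double group, and Sfrp1 is highest in Control and lowest in the double group.

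Dkk4, on chromosome 8 (22624043 to 22627546, mm10), was nearly silent in Control and Notch1 KO and abundant in the groups with β-catenin OE. It was listed at 0, 0.0509 and 0 FPKM in Control and at 0, 0 and 0.197 in Notch1 KO. β-catenin OE samples held 1.18, 66.1 and 63.2 FPKM, and double samples 56.4, 93.1 and 86.7. β-catenin OE sample 1 was thus far below samples 2 and 3 of its group, though still above every Control and Notch1 KO sample. In the samples numbered 2 and 3, these levels correspond to 1.0 and 0 fragments for Control, 0 and 4.0 for Notch1 KO, 1401.6 and 1642.6 for β-catenin OE and 2416.3 and 1774.9 for the double group, if FPKM was not scaled further. The log2(FPKM + 0.5) difference from Control was 5.22 ± 1.06 (SE, n = 3 per group) in β-catenin OE (adjusted p = 0.0262 by limma) and 7.23 ± 1.06 in the double group (adjusted p = 0.00104). No linear fold is given, because Control is at or near 0. Dkk4 passed the filter on low values only through β-catenin OE and double samples, and the p-values of those groups here do not take that into account. The β-catenin OE call ended without Control sample 2 (adjusted p = 0.0892 by limma), without Control sample 3 (0.0978) and without β-catenin OE sample 2 (0.119) or 3 (0.12). Dkk4 was also higher than in Notch1 KO in β-catenin OE (5.11 ± 1.06, adjusted p = 0.0181 by limma), a call that ended without β-catenin OE sample 2 or 3 and without any Notch1 KO sample, and in the double group (7.12 ± 1.06, adjusted p = 0.00141). Double and β-catenin OE overlapped (2.01 ± 1.06, adjusted p = 0.343 by limma). In the authors' deposited table, Dkk4 carried a p-value of 0.1758 both for β-catenin OE and for the double group against Control.

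Dkk1, on chromosome 19 (30545885 to 30549496), was likewise highest in the double group, at a much lower level. FPKM values were 0.143, 0.0272 and 0.0933 for Control, 0.0629, 0.0462 and 0.131 for Notch1 KO, 0.131, 1.17 and 1.24 for β-catenin OE, and 1.31, 2.96 and 3.03 for the double group. Every double sample was above every sample of the other groups, while β-catenin OE sample 1 lay among the Control samples. Fragments behind these values numbered 1.1 and 5.5 in Control samples 2 and 3 and 157.6 and 127.2 in double samples 2 and 3, on the same condition as for Dkk4. Dkk1 rose in double against Control (2.26 ± 0.37 on the log2(FPKM + 0.5) scale, adjusted p = 0.00206 by limma) and against Notch1 KO (2.28 ± 0.37, adjusted p = 0.00245). The differences of β-catenin OE from Control (1.06 ± 0.37, adjusted p = 0.205 by limma) and of double from β-catenin OE (1.20 ± 0.37, adjusted p = 0.116) did not pass, and the former passed without β-catenin OE sample 1. The authors' deposited p for Dkk1, not said to be adjusted, was 0.0014 for β-catenin OE and 0.0004 for the double group against Control. Because 0.5 was added before the logarithm, these differences understate the change of a gene as low as Dkk1. It too passed the filter on low values only through β-catenin OE and double samples, which its p-values do not take into account.

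Dkk2, on chromosome 3 (132084447 to 132180305), can act on Lrp6 as an inhibitor or, in some settings, as a weak activator. It was at 28.6, 43.6 and 37.6 FPKM for Control, 30.8, 32.3 and 32.2 for β-catenin OE, 34.8, 35.0 and 38.9 for Notch1 KO, and 48.9, 54.5 and 57.4 for the double group. Double samples lay above all 9 others, and neither change alone gave a difference from Control past the threshold. The mean of the double group was 1.47 times that of Control (0.56 ± 0.14 on the log2 scale, adjusted p = 0.0197 by limma). The difference was 0.74 ± 0.14 against β-catenin OE (adjusted p = 0.0167) and 0.56 ± 0.14 against Notch1 KO (adjusted p = 0.0237). Without double sample 2 or 3 all 3 calls ended, with adjusted p from 0.0689 to 0.0957 by limma. Omitting β-catenin OE sample 2 or 3 also ended the call against that group, and the call against Notch1 KO without any of its 3 samples.

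Dkk3, on chromosome 7 (112116019 to 112159057), was the most abundant Dkk gene in Control. Levels were 52.3, 67.7 and 68.9 FPKM for Control, 79.3, 73.4 and 72.6 for β-catenin OE, 83.1, 66.9 and 67.5 for Notch1 KO, and 56.8, 53.5 and 53.5 for the double group. The double samples were below every sample of β-catenin OE and Notch1 KO and overlapped Control. Its differences did not pass, with -0.19 ± 0.12 in double against Control (adjusted p = 0.365 by limma), -0.46 ± 0.12 against β-catenin OE (adjusted p = 0.0803) and -0.40 ± 0.12 against Notch1 KO (adjusted p = 0.0675). Without Control sample 1 the latter 2 passed.

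Wif1, on chromosome 10 (121034004 to 121100642), rose to the highest level of any antagonist in the double group. Its FPKM values were 89.0, 49.0 and 47.0 for Control, 67.5, 94.3 and 93.3 for β-catenin OE, 32.6, 39.3 and 38.5 for Notch1 KO, and 137, 223 and 223 for the double group. Double samples were above all others, Notch1 KO samples were below all others, and β-catenin OE overlapped Control, whose sample 1 was the highest of its group. The mean in the double group was 3.15 times that of Control (1.68 ± 0.26 on the log2 scale, adjusted p = 0.00137 by limma), 2.29 times that of β-catenin OE (1.17 ± 0.26, adjusted p = 0.0369) and 5.29 times that of Notch1 KO (2.36 ± 0.26, adjusted p = 0.000202). β-catenin OE was 2.31 times Notch1 KO (1.19 ± 0.26, adjusted p = 0.0227 by limma). Neither β-catenin OE (0.51 ± 0.26, adjusted p = 0.424 by limma) nor Notch1 KO (-0.68 ± 0.26, adjusted p = 0.432) differed from Control past the threshold. For Wif1 the authors' deposited table gave a p of 0.00625 for β-catenin OE and 5e-05 for each of the other 2 groups against Control. The call against β-catenin OE ended without any one of its 3 samples, without Notch1 KO sample 2 or 3 and without double sample 2 or 3, with adjusted p from 0.0618 to 0.145 by limma. It also ended with no filter on low values (adjusted p = 0.0581 by limma) and with only the 2 groups in the model (0.0635). The difference between β-catenin OE and Notch1 KO ended without β-catenin OE sample 2 or 3 and without any Notch1 KO sample, with adjusted p from 0.0662 to 0.094 by limma.

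Sfrp1, on chromosome 8 (23411502 to 23449632), was the antagonist with the highest level in Control and fell in the double group. Control samples held 131, 170 and 173 FPKM, β-catenin OE samples 127, 111 and 108, Notch1 KO samples 112, 93.9 and 92.8, and double samples 86.8, 66.4 and 66.2. All β-catenin OE and Notch1 KO samples lay below all Control samples, and the double samples below all others. The double group was at 0.462 times the mean of Control (-1.11 ± 0.15 on the log2 scale, adjusted p = 0.000589 by limma) and at 0.633 times that of β-catenin OE (-0.66 ± 0.15, adjusted p = 0.0401). Notch1 KO against Control did not pass (-0.66 ± 0.15, adjusted p = 0.0686 by limma), nor did β-catenin OE against Control (-0.44 ± 0.15, adjusted p = 0.188) or double against Notch1 KO (-0.45 ± 0.15, adjusted p = 0.0836). Without Control sample 1 all 3 of these passed. In the authors' deposited table, whose p-values are not said to be adjusted, Sfrp1 carried a p of 0.00965 for β-catenin OE, 0.0001 for Notch1 KO and 5e-05 for both changes against Control. The call of double against β-catenin OE ended in several alternatives, among them no filter on low values (adjusted p = 0.0531 by limma) and the omission of Control sample 2 or 3, any β-catenin OE sample, Notch1 KO sample 2 or 3, or double sample 2 or 3.

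Sfrp2, on chromosome 3 (83766321 to 83790629), was lowest in the double group. FPKM values were 32.2, 32.8 and 36.7 for Control, 46.7, 25.2 and 22.7 for β-catenin OE, 42.0, 34.9 and 32.3 for Notch1 KO, and 22.2, 19.7 and 17.9 for the double group. Double samples lay below all others, and β-catenin OE sample 1 was the highest of all 12 while samples 2 and 3 of that group were below Control. The mean in the double group was 0.588 times that of Control (-0.76 ± 0.22 on the log2 scale, adjusted p = 0.0468 by limma) and 0.547 times that of Notch1 KO (-0.85 ± 0.22, adjusted p = 0.032). The call against Control was close to the threshold and was lost in 15 of 22 alternatives, and among single omissions it was kept without β-catenin OE sample 1 or 3 and lost without any other sample. The call against Notch1 KO ended without any Notch1 KO sample and without double sample 2 or 3. An antisense gene, Gm26771, overlaps Sfrp2 at 2 pairs of exons in GENCODE, and the sources used here do not say whether counting used strand, so reads of the 2 genes may not be separable. A second row with the same symbol averaged 0.682 FPKM and was not used.

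Sfrp4, on chromosome 13 (19623175 to 19632907), was low in all groups and lowest in the double group. It was at 9.31, 3.45 and 4.38 FPKM for Control, 3.21, 3.79 and 3.91 for β-catenin OE, 2.22, 3.78 and 4.67 for Notch1 KO, and 1.43, 1.46 and 1.53 for the double group. Every double sample lay below all others, whereas the other 3 groups overlapped and Control sample 1 was well above the rest. Double against Control gave -1.54 ± 0.31 (adjusted p = 0.00705 by limma). Double against β-catenin OE (-1.07 ± 0.31, adjusted p = 0.0978 by limma) and against Notch1 KO (-0.99 ± 0.31, adjusted p = 0.0675) did not pass, and both passed without Control sample 1.

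Sfrp5, on chromosome 19 (42197971 to 42202252), passed in no comparison with all 12 samples. FPKM values were 4.48, 0.819 and 0.921 for Control, 2.68, 2.2 and 2.18 for β-catenin OE, 1.71, 1.39 and 1.52 for Notch1 KO, and 1.49, 1.41 and 1.37 for the double group. Control sample 1 was the highest of all 12 and the other 2 Control samples were the lowest. Every β-catenin OE sample lay above every Notch1 KO and double sample. The difference of double from β-catenin OE was -0.56 ± 0.39 (adjusted p = 0.476 by limma), and double against Control gave -0.13 ± 0.39 (adjusted p = 0.874 by limma). Without Control sample 1, Sfrp5 passed as higher in β-catenin OE than in Control, Notch1 KO and the double group.

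Frzb, on chromosome 2 (80411966 to 80464072), differed between β-catenin OE and the double group. Its values were 95.2, 93.7 and 94.9 FPKM for Control, 155, 114 and 116 for β-catenin OE, 129, 79.2 and 78.8 for Notch1 KO, and 71.9, 72.7 and 73.5 for the double group. All β-catenin OE samples were above all Control samples and all double samples were below every other sample. The fall in double against β-catenin OE passed (-0.80 ± 0.18, a mean 0.566 times as high, adjusted p = 0.0401 by limma). That call ended under no filter on low values (adjusted p = 0.0581 by limma) and without any one of Control samples 2 and 3, the β-catenin OE samples, Notch1 KO samples 2 and 3 or the double samples. The differences of β-catenin OE (0.42 ± 0.18, adjusted p = 0.309 by limma) and double (-0.38 ± 0.18, adjusted p = 0.208) from Control did not pass. The authors' deposited p for Frzb, not said to be adjusted, was 0.00705 for β-catenin OE and 0.01925 for the double group against Control.

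Summed over the 10 genes, antagonist RNA was of the same order of magnitude in all groups, but no changed group overlapped Control, and its makeup differed. Control samples summed to 442 to 464 FPKM. All β-catenin OE (514 to 523) and double samples (485 to 589) were above them, and all Notch1 KO samples (354 to 438) below. The sum was 456 ± 11.9 FPKM (SD, n = 3) for Control, 518 ± 5.0 for β-catenin OE, 382 ± 47.8 for Notch1 KO and 553 ± 58.8 for the double group. The 4 Dkk genes together went from 99.7 ± 16.3 FPKM in Control to 189 ± 22.5 in the double group, and the 5 Sfrp genes with Frzb from 294 ± 19.9 to 169 ± 13.1, and in both sums the samples of the 2 groups did not overlap. Dkk4 had the largest change of the 4 Dkk genes, from 0.0170 to 78.7 FPKM on average. Dkk2 went from 36.6 to 53.6, Dkk1 from 0.0879 to 2.43, and Dkk3 was lower, from 63.0 to 54.6. Wif1 made up 10.1% to 20.1% of the sum in Control samples and 28.4% to 38.2% in double samples. Dkk4 made up at most 0.011% in Control and 11.6% to 15.8% in the double group, and in β-catenin OE it made up 0.229% in sample 1 and 12.6% and 12.3% in samples 2 and 3. Sfrp1 fell from 29.6% to 37.4% of the sum in Control to 11.3% to 17.9% in the double group. These sums and shares are descriptions with no test.

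**Figure D3:**
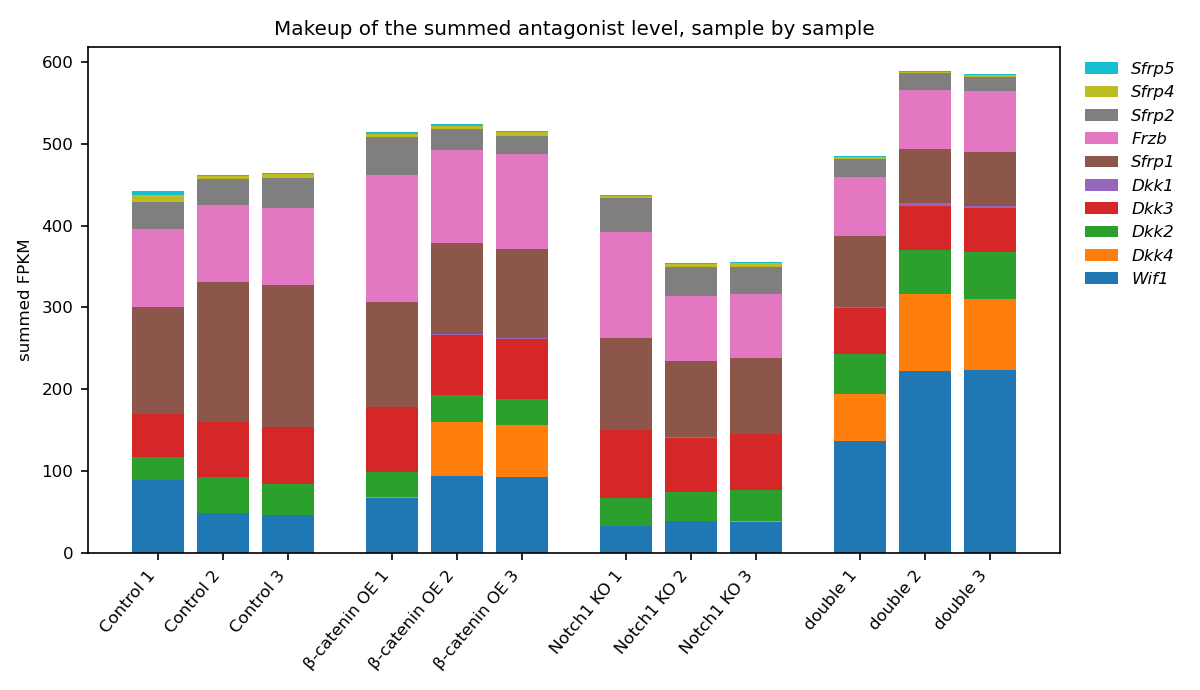
Summed FPKM of the 10 antagonists in each of the 12 samples, stacked by gene on a linear axis from 0. Wif1 and Dkk4 are at the base of each bar, where Wif1 takes up 28.4% to 38.2% of the double bars, and Dkk4 is barely visible in β-catenin OE 1 beside β-catenin OE 2 and 3.

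Because the samples numbered 1 stood apart, differences from Control were also taken between samples with the same number, as a description. For Dkk4 in β-catenin OE they were 1.75 between the samples numbered 1 and 6.92 and 6.99 between those numbered 2 and 3 on the log2(FPKM + 0.5) scale. Wif1 gave -0.40, 0.94 and 0.98 in β-catenin OE, and Dkk1 gave -0.03, 1.67 and 1.55, so that for both genes the samples numbered 1 differed in sign from the others. In the double group all 3 numbers moved the same way for each of the 7 genes that passed. That had to be so, because double and Control samples of these genes did not overlap, and it adds no support. Wif1 gave 0.62, 2.17 and 2.24 there, Dkk4 6.83, 7.41 and 7.45, Dkk1 1.5, 2.71 and 2.57, and Sfrp1 -0.59, -1.35 and -1.38. Sfrp4 went the other way in size, with -2.35 between the samples numbered 1 and -1.01 and -1.26 between the others.

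**Figure D4:**
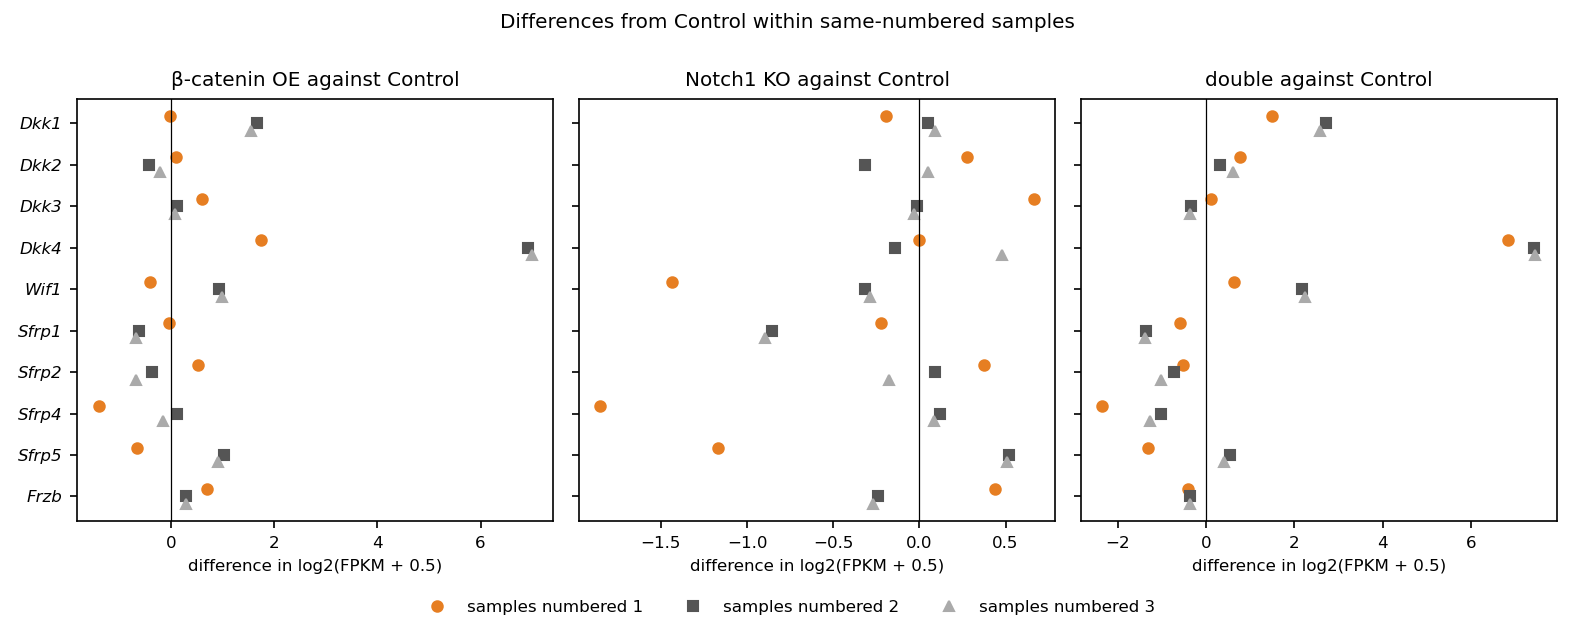
Differences from Control in log2(FPKM + 0.5) between samples that carry the same number, for the 10 antagonists in 3 comparisons (orange circles for samples 1, dark squares for samples 2, light triangles for samples 3); each panel has its own axis. Samples 2 and 3 lie close together and sample 1 often apart, as for Dkk4 in β-catenin OE (1.75 against 6.92 and 6.99).

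Whether the 2 changes combined by simple addition on the log2 scale was tested as double minus β-catenin OE minus Notch1 KO plus Control. Of the 10 members 0 passed limma's test, beside 0.0206% of all rows, and Dkk1, Dkk2, Dkk3, Frzb and Wif1 had an unadjusted p under 0.05. Wif1 had the smallest p, with 1.85 ± 0.36 (adjusted p = 0.103 by limma), followed by Dkk2 with 0.74 ± 0.19 (adjusted p = 0.203) and Dkk3 with -0.66 ± 0.18 (adjusted p = 0.214). For Sfrp1 the value was -0.00 ± 0.21, so the fall in the double group was close to the sum of the falls with each change alone.

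Genes with the most similar pattern were sought by Pearson's r of log2(FPKM + 0.5) over the 12 samples. The r values describe these samples only, which share groups and the difference between sample 1 and the others. Closest to Dkk4 were Adtrp (0.998), Ascl4 (0.996) and Cdx1 (0.995), and Ascl4 averaged 0.0751 ± 0.0657 FPKM (SD, n = 3) for Control, 4.85 ± 3.57 for β-catenin OE, 0.0166 ± 0.0287 for Notch1 KO and 8.97 ± 1.31 for the double group. Closest to Wif1 were Scube1 (0.978), Runx1 (0.972) and Nuak2 (0.971), and Runx1 averaged 1.52 ± 0.688 FPKM for Control, 3.24 ± 0.229 for β-catenin OE, 1.04 ± 0.207 for Notch1 KO and 7.53 ± 2.02 for the double group. Dkk1 was most like Rnf114 (0.993), and Dkk2 most like Pank2 (0.948). Sfrp1 was most like Rhpn2 (0.969), Sfrp2 most like Kazald1 (0.970) and Sfrp4 most like Slc16a1 (0.966). For Dkk3 it was Tspan13 (0.923), for Sfrp5 Gas7 (0.975) and for Frzb Laptm4b (0.958).

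Other inhibitors of the pathway, at the cell surface or secreted, were followed in a list of 12 genes, of which 9 were tested. In double against Control 4 rose and 1 fell, beside 12.5% of all rows passing, with a median difference of 0.06 beside -0.02 over all rows. Shisa2, which holds back the maturation of Frizzled, rose from 45.3 ± 0.903 FPKM (SD, n = 3) in Control to 76.9 ± 6.95 in β-catenin OE (0.75 ± 0.11, adjusted p = 0.00495 by limma) and 120 ± 14.8 in the double group (1.39 ± 0.11, adjusted p = 2.26e-05). Apcdd1, a membrane-bound inhibitor (1.02 ± 0.27), and Igfbp4 (0.53 ± 0.15) rose in double against Control and Sostdc1, a secreted ligand of Lrp6, fell (-0.77 ± 0.20). Notum, an enzyme that removes the lipid from Wnt proteins, averaged 103 ± 6.92 FPKM for Control, 64.3 ± 3.33 for Notch1 KO and 137 ± 6.84 for the double group. It fell in Notch1 KO (-0.68 ± 0.12, adjusted p = 0.0242 by limma) and rose in double against Control (0.41 ± 0.12, adjusted p = 0.0466). Kremen1, a receptor for Dkk proteins, averaged 67.3 ± 12.8 FPKM for Control, 83.3 ± 2.14 for β-catenin OE, 44.0 ± 4.84 for Notch1 KO and 67.1 ± 3.10 for the double group. It was the 1 of 3 tested Dkk receptors that passed in double against Notch1 KO (0.61 ± 0.13, adjusted p = 0.0117 by limma), beside 10.1% of all rows. Kremen1 was also the 1 of 3 that passed in β-catenin OE against Notch1 KO, where it was higher too, beside 5.03% of all rows.

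Among 13 tested Wnt ligands 4 rose and 3 fell in double against Control, where 12.5% of all rows passed. Wnt9b and Wnt10a, both among those that rose, passed the filter on low values only through β-catenin OE and double samples. No Control or Notch1 KO sample of either gene reached 0.5 FPKM, so the counts of ligands are partly set by the filter. Wnt6 went from 2.85 ± 0.672 FPKM (SD, n = 3) to 20.1 ± 0.808 (2.64 ± 0.27, adjusted p = 0.000113 by limma). Wnt10a was listed at 0, 0.0316 and 0 FPKM in Control and at 8.28, 10.95 and 10.96 in the double group, and Wnt4 fell from 8.63 ± 0.674 to 4.39 ± 0.267 (-0.90 ± 0.15, adjusted p = 0.00282). Of 13 tested receptors 4 rose and 2 fell in the same comparison, and Ror2, a receptor of Wnt5a, rose from 3.16 ± 0.556 FPKM in Control to 8.07 ± 0.935 in β-catenin OE and 14.1 ± 1.63 in the double group. Of 13 tested Wnt targets 4 rose and 0 fell in β-catenin OE (2.24% of all rows passed) and 10 rose and 0 fell in the double group (12.5%), with medians of 0.73 and 1.43. Lgr5, a receptor found on Wnt-responsive progenitors, averaged 7.75 ± 0.301 FPKM in Control and 50.3 ± 0.506 in the double group, and β-catenin OE samples held 50.1, 33.0 and 32.3. For Lgr5 sample 1 was thus the highest of the β-catenin OE group, as it was for the tested targets Znrf3, Rnf43 and Bambi. For Dkk4 and Dkk1 it was the lowest. The same held for the targets Axin2 (26.5, 45.0 and 47.3 FPKM) and Ccnd1 (38.7, 104 and 105). It also held for Sp5, Nkd1, Nkd2, Tcf7, Lef1, Myc and Tnfrsf19.

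Bulk RNA does not say which cells held these transcripts, and fewer cells of a type cannot be told apart from less RNA per cell. The summed level of 10 supporting cell markers was 1617 to 1901 FPKM in Control and 844 to 1130 in the double group, and in double against Control 4 of the 10 fell (Hes5, Sox2, S100a1 and Cdkn1b) and 1 rose (Ngfr), beside 12.5% of all rows. The counts for other cell types below read against the same 12.5%. S100a1 made up a large part of the supporting cell sum, with 924, 1301 and 1278 FPKM in Control and 407, 684 and 663 in the double group. Mesenchyme and fibroblast markers summed to 2207 to 2319 FPKM in Control and 1728 to 2314 in the double group, with 0 of 10 rising and 3 falling. Lum was the largest part of these sums, at 906, 1308 and 1200 FPKM in Control and 897, 1342 and 1378 in the double group. For bone and cartilage the sums were 2395 to 3859 and 2176 to 2569 FPKM (0 rose and 2 fell of 10), of which Col2a1 and Col9a1 made up most. Bglap was at 68.2, 2.37 and 3.09 FPKM in Control and was listed at 0 in β-catenin OE sample 1 and double sample 1. Ibsp was at 461, 82.0 and 78.1 FPKM in Control. Within Control, sample 1 was the highest for every gene of this list except Matn1 and Col9a1, for which it was the lowest. Hair cell markers summed to 191 to 242 FPKM in Control, 307 to 331 for Notch1 KO and 185 to 224 for the double group, and none of the 8 was at 0 in any sample. Pvalb made up a large part of that sum, with 129, 72.0 and 70.7 FPKM in Control and 41.6, 78.6 and 77.0 in the double group. In double against Control 0 of the 8 passed limma's test (Pou4f3 and Espn had an unadjusted p under 0.05), with a median log2 difference of 0.36, and Pou4f3 averaged 19.9 ± 3.54 FPKM in Control and 30.2 ± 3.14 in the double group. Schwann cell markers ranged from 534 to 2916 FPKM among Control samples, neuronal markers from 119 to 340, strial markers from 166 to 222, endothelial markers from 76.0 to 154, macrophage markers from 54.8 to 156 and erythroid markers from 7.23 to 61.9. In the double group these were 509 to 662, 66.2 to 98.9, 119 to 171, 59.4 to 84.0, 68.5 to 152 and 3.64 to 15.3. The part of these cell types in the levels of Sfrp1, Sfrp2, Sfrp4, Frzb and the other antagonists was not tested.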

How the data were processed

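RNA was sequenced from the apical and middle cochlear turns of 12 pooled mouse samples in 4 groups of 3, grouped by their titles. The authors deposited 1 table of FPKM values with, for each changed group against Control, the authors' log2 fold changes and p-values, which are not said to be adjusted. Per the submitters' processing notes, the tools were Bowtie2 2.2.1, Cuffdiff, TopHat2 2.0.10, Cufflinks 2.2.1, Trimmomatic 0.23 and CASAVA 1.8, and the build was mm10, with no role or order stated. The sources used here do not give the annotation, the strand setting or whether libraries were scaled further. Fragment counts were therefore not recovered as whole numbers for all genes, and no count test was run.

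Rows with at least 0.5 FPKM in at least 3 samples (14581) were tested on log2(FPKM + 0.5) with limma 3.58.1 in R 4.3.3, in 1 model of the 4 groups (empirical Bayes, spread trended with the mean). Tests were two-sided, with Benjamini-Hochberg adjustment over all tested rows and a threshold of 0.05. The test was checked on simulated data with changed genes and independent noise in each sample. That check does not cover samples 2 and 3 of a group being closer to each other than to sample 1. Log2 differences understate the change of low genes, ± beside them is the standard error, and an exact 0 can be a failed estimate. Depth was estimated from low values of genes with 1 annotated transcript in GENCODE M21: in the samples numbered 2 and 3, 76.4% to 79.4% of values under 5.5 fragments lay within 0.1 of a whole number (20% by chance before fitting), against 28.0% to 38.3% in the samples numbered 1. Starts of loci are 1-based. Same-numbered samples were not treated as pairs.

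Members, gene lists, tests and alternatives were chosen with earlier results of these data known. From each list of pathway genes, up to 4 members with the smallest p among those past the threshold were named, and for each antagonist the 3 most similar rows were taken, leaving out predicted models, ribosomal and small RNA and merged rows. Xist, the markers of cell types and the Wnt targets given for the order of their β-catenin OE samples were named outside this rule. The alternatives were no trend, a pseudocount of 0.1 or 1, no filter, the sample number as a block, averaging samples 2 and 3, those samples alone, 2 groups at a time, quantile normalization, a shift to a common median and leaving out each sample.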

Additional observations from a re-analysis of the deposited data

Results flagged for a closer look

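For Wif1 the Notch1 KO samples were all below Control, while the double samples were all above β-catenin OE, so the effect of Notch1 KO had opposite signs without and with β-catenin OE. The difference between the 2 effects was 1.85 ± 0.36 on the log2 scale and did not pass (adjusted p = 0.103 by limma). Such a pattern was present in 175 of 14581 tested rows, or 1.2%.

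Dkk3 and Frzb showed the opposite signs for β-catenin OE. Their β-catenin OE samples were all above Control, and their double samples were all below Notch1 KO. The difference between the 2 effects was -0.66 ± 0.18 for Dkk3 (adjusted p = 0.214 by limma) and -0.78 ± 0.25 for Frzb (adjusted p = 0.36), so neither passed. This pattern was present in 101 rows, or 0.693%. Groups of 3 were not tested for a sample far from the others.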

How the results depend on the processing

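Over 20 differences of single antagonists and 22 alternatives, 339 of 439 values kept their direction and their side of the threshold, 99 no longer passed, 0 reversed, and 1, the non-additivity of Wif1 with samples 2 and 3 alone, came to pass. Members past the threshold, in the order β-catenin OE, Notch1 KO and double against Control, double against β-catenin OE, double against Notch1 KO, β-catenin OE against Notch1 KO and non-additivity, numbered 1, 0, 7, 4, 5, 2 and 0. When each sample was left out in turn they ranged from 0 to 3, 0 to 1, 5 to 7, 0 to 7, 3 to 8, 0 to 4 and 0 to 2. For double against β-catenin OE the count was 1 with no filter on low values, 2 with quantile normalization and 2 with a shift to a common median. With samples 2 and 3 averaged it was 0, and the counts were 0 for β-catenin OE against Control, 1 for double against Control, 1 for double against Notch1 KO and 0 for β-catenin OE against Notch1 KO. With samples 2 and 3 alone they were 8, 4, 10, 10, 9, 8 and 7. With only the groups compared, β-catenin OE against Control gave 0 and β-catenin OE against Notch1 KO gave 1. The cause of these shifts was not tested, except that averaging leaves fewer values per group. The median shift moved samples by -0.06 to 0.03 on the log2 scale. Without depth for the samples numbered 1, the precision of Dkk1 and Dkk4 there is not known.

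Same-numbered samples correlated in their deviations from group means by 0.233 to 0.505 for number 1, 0.0679 to 0.422 for number 2 and 0.212 to 0.462 for number 3. Samples numbered 2 correlated with those numbered 3 in another group by 0.0369 to 0.347, which overlaps the ranges for numbers 2 and 3. The labels do not say what a number marks. In a fit with a replicate block for the sample number, members past the threshold numbered 1, 0, 7, 4, 5, 2 and 0, so the block changed no call of a member.

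Over all rows, 327, 125, 1826, 396, 1476, 734 and 3 passed. They numbered 635, 237, 2934, 826, 2290, 1412 and 53 with the block, 10, 0, 259, 0, 175, 14 and 0 with samples 2 and 3 averaged, and 5685, 1735, 6134, 4281, 6189, 6037 and 2810 with those samples alone. For the 6 comparisons of 2 groups they numbered 65, 8, 1433, 228, 2010 and 594 with only the groups compared. Leaving out each sample gave 126 to 901, 14 to 213, 1128 to 2498, 113 to 1023, 790 to 2060, 327 to 1422 and 0 to 67. Non-additivity gave 1 with a pseudocount of 0.1, 7 with no filter, 6 with quantile normalization and 2 with a median shift.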
